A study of Gallus gallus with 6 samples.

Results

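HPX, HMOX1, CP and TFRC are 4 genes that handle heme, iron and copper, and they were followed in rooster liver from hatching to maturity. They were picked by symbol from the deposited mRNA table, where they account for 4 of 1480 rows, and each symbol had 1 row. Livers of Arbor Acres breeder roosters, a broiler parent stock, were sequenced after removal of ribosomal RNA. The immature group had 3 libraries, each a pool of RNA from 4 livers of chicks aged 1 day, and the mature group had 3 libraries, each from the liver of 1 rooster aged 40 weeks. All birds were male, of the same stock and deprived of feed before the livers were taken.

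Heme is the iron-holding pigment of hemoglobin and of the cytochromes, and free heme or free iron damages cells by driving oxidation. Hemopexin, the product of HPX, is a plasma protein made by hepatocytes that binds free heme and brings it to the liver. Heme oxygenase 1, from HMOX1, opens the heme ring and releases iron, biliverdin and carbon monoxide. Ceruloplasmin, from CP, carries most of the copper of plasma and oxidizes iron as it leaves cells, so that transferrin can take it up. The transferrin receptor, from TFRC, brings iron-loaded transferrin into cells, and in mammals its mRNA is kept stable when the cell lacks iron.

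Each group was given 1 FPKM value for a gene by the authors, the count of fragments divided by transcript length and by sequencing depth. No value per library was at hand, so the values below carry no error, no replicate check and no p-value, and the tables give no fragment counts behind them. A difference is the log2(FPKM + 1) of mature livers less that of immature livers, and it is too small for genes with low values. A gene was counted as higher or lower past the fold at a difference over 1 or under -1. All rows of the table had been chosen by the authors as differentially expressed. Rows carry identifiers of assembled transcripts, and a gene can have more than 1 row with unlike values, as Ii (CD74) has. Transcripts of HPX, HMOX1, CP or TFRC that were not chosen would be absent. The values, ranks and ratios below may therefore not cover the whole gene. The set of mRNAs reported in the study's Results is larger, and most of it is lower in mature livers, unlike the rows used here. A gene that is not listed has no value here and is not counted as unchanged.

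HPX, HMOX1 and CP were higher in the mature livers, and TFRC was lower. HPX was among the most abundant mRNAs of the table at both stages, while CP went from a low level to an abundant one. Past the fold, 3 of the 4 genes were higher and 1 was lower. Among all 1480 rows, 35.9% were higher past the fold and 29.8% were lower, 65.7% in all, so passing it is common among these selected rows. Without the added 1, 803 rows were higher and 663 lower past the fold. The other 14 rows had a value of 0. Passing was thus fixed in advance by the selection of rows. The 65.7% mainly tells how many rows have values high enough to outweigh the added 1. HMOX1 and CP had differences over 2, as had 9.46% of all rows, and TFRC was under -2, as were 5.34% of all rows. The median difference over the 1480 rows was 0.64. Taken relative to that median, the differences were 0.86 for HPX, 1.64 for HMOX1, 4.68 for CP and -2.78 for TFRC, and HPX was then under the fold. On that scale 15% of all rows were higher past the fold and 45.1% were lower. Of the rows past the fold 54.7% were higher, and 24.9% when the median was subtracted. The table holds selected genes only, so its median is not a measure of how the libraries were scaled.

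**Figure D1:**
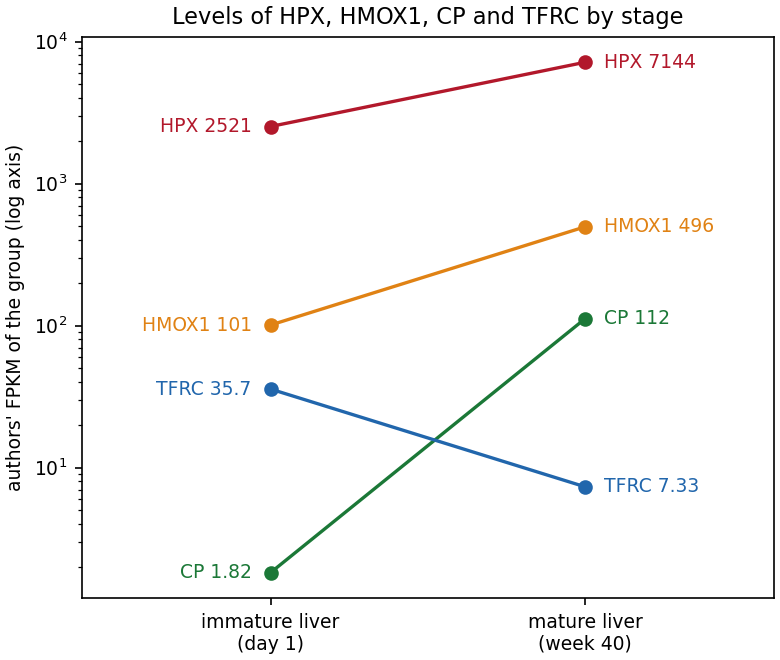
Authors' FPKM of each group on a log axis for HPX, HMOX1, CP and TFRC in immature livers (day 1) and mature livers (week 40). Each point is 1 group value without an error, and a line joins the points of a gene. CP and TFRC exchange places, with CP going from 1.82 to 112 FPKM and TFRC from 35.7 to 7.33 FPKM.

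HPX (ENSGALG00000022586, chromosome 1, 193596424 to 193599483) was at 2521 FPKM at day 1 and 7144 FPKM at week 40. The mature value was 2.83 times the immature one, a log2 difference of 1.50. HPX was thus abundant already on the first day after hatching, when it ranked number 8 of the 1480 rows by level, and it ranked number 7 in mature livers. These rows are selected and include small RNAs. SCARNA16 stood above HPX at both stages, at 2972 and 12834 FPKM, and U3 in mature livers, at 9705 FPKM. Its difference was a moderate one for this table, with rank 262 from the highest.

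HMOX1 (ENSGALG00000012550, chromosome 1, 51949100 to 51955226) was at 101 FPKM at day 1 and 496 FPKM at week 40. The mature value was 4.92 times the immature one, a log2 difference of 2.29, with rank 105 from the highest. By level HMOX1 moved from rank 94 in immature livers to rank 27 in mature livers. The hemopexin mRNA exceeded that of the heme-degrading enzyme at both stages. HPX had 25.0 times the FPKM of HMOX1 at day 1 and 14.4 times at week 40.

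CP (ENSGALG00000010434, chromosome 9, 23264308 to 23397451) was at 1.82 FPKM at day 1 and 112 FPKM at week 40. The mature value was 61.3 times the immature one. The log2 difference of 5.32 was the number 3 of the whole table from the highest. By level CP went from rank 898 to rank 97. The deposited locus of CP spans 133144 bases, against 3060 for HPX, 6127 for HMOX1 and 16013 for TFRC. In the RefSeq annotation of another assembly (GRCg7b) CP is 17460 bases long and overlaps 1 other protein-coding gene, HPS3, while HPX, HMOX1 and TFRC overlap none. The overlap was sought over those 17460 bases only, not over the 133144 bases of the deposited locus. The handling of reads from overlapping genes was not stated in the sources used here. The CP value may include reads of HPS3 or of other genes in the deposited locus, which was not tested.

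TFRC (ENSGALG00000007485, chromosome 9, 14408399 to 14424411) was at 35.7 FPKM at day 1 and 7.33 FPKM at week 40. The immature value was 4.88 times the mature one, a log2 difference of -2.14, with rank 67 from the lowest. By level TFRC went from rank 199 to rank 523. It is the only one of the 4 genes that was lower in mature livers. Reads were mapped to Galgal5 in the study, and the tables themselves name no genome build for the coordinates.

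The order of levels, which FPKM allows because it is per length, differed between the stages. In immature livers it was HPX, HMOX1, TFRC and CP, from high to low. In mature livers it was HPX, HMOX1, CP and TFRC. TFRC had 19.6 times the FPKM of CP in immature livers, and CP had 15.2 times that of TFRC in mature livers. HMOX1 exceeded TFRC by 2.82 times in immature and by 67.7 times in mature livers. Without values per library it cannot be said which neighbours in this order differ beyond their spread.

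**Figure D2:**
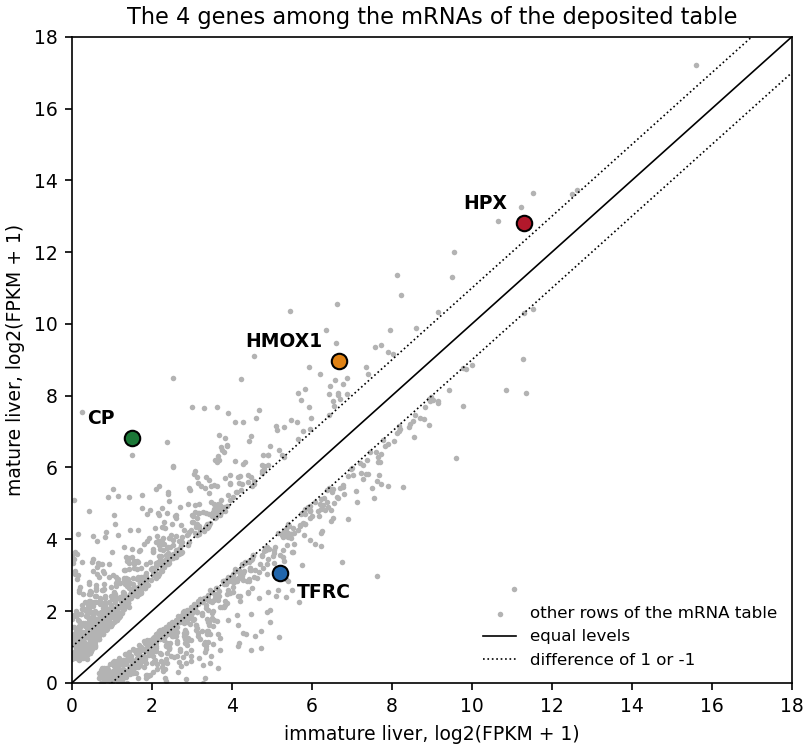
Level in mature livers against level in immature livers, both as log2(FPKM + 1), for the 1480 rows of the deposited mRNA table (grey) with HPX, HMOX1, CP and TFRC marked. The solid line is equal levels and the dotted lines a difference of 1 or -1. All rows had been selected by the authors, and 65.7% of them lie outside the dotted lines. CP lies far above the solid line at a difference of 5.32.

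Around these 4 genes, 5 lists of heme, iron and copper handling were followed, with 100 different genes in all. The lists do not hold every gene with such a role. Of these, 13 were listed in the table, 7 of them higher and 3 lower past the fold, and their median difference was 1.50 against 0.64 over the whole table. Without HPX, HMOX1, CP and TFRC, 9 genes were listed, 4 higher and 2 lower past the fold, with a median of 0.97. The share past the fold was then 66.7%, close to the 65.7% of the whole table, so these counts do not set the lists apart. Both shares depend on the added 1. Without it, 8 of the 13 listed genes were higher and 5 lower past the fold.

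Heme synthesis was represented by 1 of 8 genes. FECH, ferrochelatase, which puts iron into the heme ring in the last step, was at 9.45 FPKM at day 1 and 4.29 FPKM at week 40 (log2 difference -0.98). The immature value of FECH was 2.20 times the mature one, and FECH was short of the fold only because of the added 1. In the list of heme breakdown and transport 3 of 15 genes were listed and all were higher, HPX and HMOX1 past the fold. The third was FLVCR1, a heme exporter of the plasma membrane in mammals, at 1.02 FPKM at day 1 and 2.97 FPKM at week 40 (0.97). Its mature value was 2.91 times the immature one, and the added 1 kept it short of the fold.

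Iron uptake, storage and export had 3 of 28 genes listed, CP higher and TFRC lower past the fold. SLC39A8, a carrier that takes up zinc and other divalent metals, was at 1.82 FPKM at day 1 and 0.559 FPKM at week 40 (-0.86). Its immature value was 3.26 times the mature one, and the added 1 kept it short of the fold. Of the 24 genes of mitochondrial iron and iron-sulfur cluster assembly, 2 were listed, and they went in opposite directions. ISCA1, a late-acting assembly factor, was at 7.90 FPKM at day 1 and 25.5 FPKM at week 40 (1.57). HSCB, the co-chaperone that hands a new cluster on from its scaffold, was at 21.6 and 10.02 FPKM (-1.04).

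Copper handling had 5 of 29 genes listed, all past the fold, 4 higher and 1 lower, with a median difference of 2.44. SLC31A1, the copper importer of the plasma membrane, was at 5.46 FPKM at day 1 and 28.9 FPKM at week 40 (2.21). Metallothioneins are small cysteine-rich proteins that bind zinc and copper, and both listed ones were higher in mature livers. MT1 was at 280 FPKM at day 1 and 2620 FPKM at week 40 (3.22). MT4 was at 753 and 4079 FPKM (2.44). Both genes lie on chromosome 11 and belong to 1 family, so their reads may have been divided between them by the counting. LOX, a copper enzyme that cross-links collagen and elastin, was at 9.59 and 3.98 FPKM (-1.09). Without CP the list had 3 genes higher and 1 lower past the fold, with a median of 2.32, and MT1 and MT4 are 2 of those 3. Over all rows of this table of selected genes 35.9% were higher and 29.8% lower past the fold. The Gene Ontology term for copper ion binding, looked up after values were seen, names 3 listed genes, CP and 2 lower ones. The lower ones are LOX and ENSGALG00000028247, which was at 2.09 and 0.614 FPKM (-0.94).

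**Figure D3:**
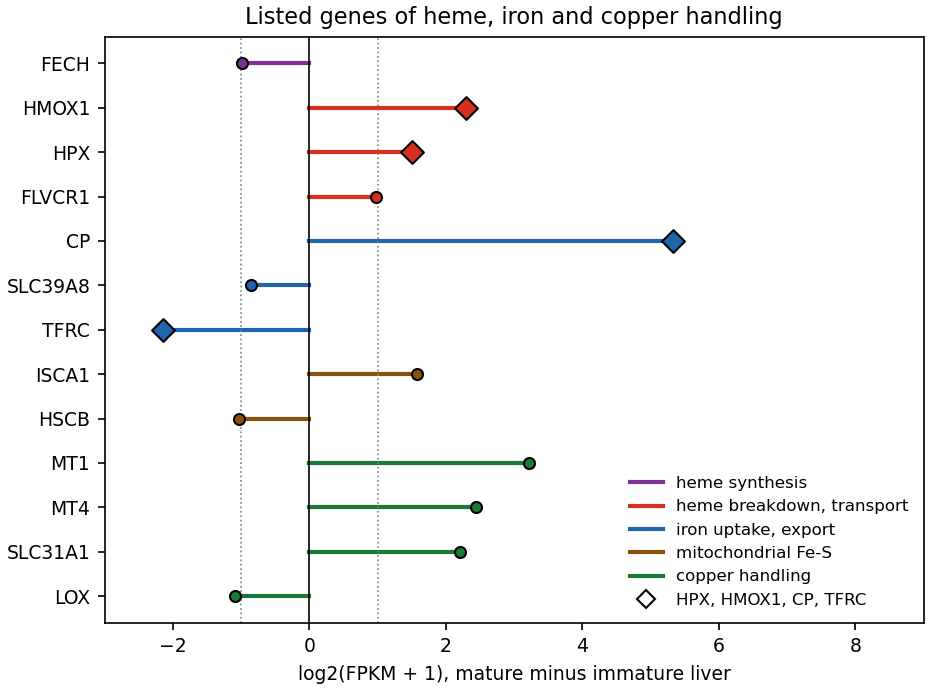
Difference of log2(FPKM + 1), mature minus immature livers, for the 13 listed genes of heme synthesis, heme breakdown and transport, iron uptake and export, mitochondrial iron-sulfur clusters and copper handling. Diamonds are HPX, HMOX1, CP and TFRC, circles the other genes, and dotted lines a difference of 1 or -1. CP belongs to the iron and the copper list and is drawn once, and the metallothioneins MT1 (3.22) and MT4 (2.44) lie nearest to it.

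The 4 genes are made by different cell types of the liver, and markers of these cells differed between the stages as well. In bulk tissue fewer cells of a type and less RNA per cell cannot be told apart. HMOX1 is made by hepatocytes and, at a high level, by the Kupffer cells, the resident macrophages of the liver that take up old red cells. Of the 19 other macrophage and Kupffer cell markers 8 were listed, and all were higher past the fold, with a median difference of 2.43. Over all rows of this table of selected genes 35.9% were higher and 29.8% lower past the fold, with a median of 0.64. The same shares are the background for the marker and response lists that follow. Summed over all rows, the level went from 123615 FPKM at day 1 to 269591 FPKM at week 40, a ratio of 2.18. The summed level of these 8 macrophage markers went from 166 to 1606 FPKM, a ratio of 9.70, and none was at 0. The ratio of HMOX1 was 4.92. Without the 2 transcripts of Ii (CD74), the MHC class II chain that B cells and dendritic cells also make, the sum went from 136 to 853 FPKM, a ratio of 6.26, an alternative chosen after values were seen. TIMD4, a receptor of resident macrophages for dying cells, was at 10.9 and 73.2 FPKM (2.64). CSF1R, the receptor of the macrophage growth factor, was at 13.2 and 51.5 FPKM (1.89). SPI1, the transcription factor PU.1 of the myeloid lineage, was at 0.635 and 3.89 FPKM (1.58). The part of these cells in the HMOX1 difference was not tested.

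TFRC is most abundant in red cell precursors and in dividing cells. Of the 24 other erythroid markers 3 were listed, 1 of them, HBE1, lower past the fold. HBE1, a globin gene of the beta cluster that the table describes as epsilon globin, was at 3.99 FPKM at day 1 and 0.0909 FPKM at week 40 (-2.19). HEMGN, a nuclear protein of red cell precursors, was at 1.44 and 0.567 FPKM (-0.64). GFI1B, a repressor of erythroid and megakaryocyte cells, went the other way, with 0.126 and 0.680 FPKM (0.58). The summed level of the 3 was 5.56 FPKM at day 1 and 1.34 FPKM at week 40, and none was at 0. Markers that are not listed are missing from this sum, so it is not a level of red cell precursors. The table lists neither ALAS2 nor GATA1, which define this lineage, so they have no value here.

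The list of proliferation markers was added after values had been seen. Of its 20 genes 14 were listed, all lower and 13 of them past the fold, with a median difference of -2.43 against -2.14 for TFRC. Their summed level went from 192 FPKM at day 1 to 17.2 FPKM at week 40, and none was at 0. CDK1, the kinase that starts mitosis, was at 49.8 and 3.76 FPKM (-3.42). TOP2A, which untangles chromosomes, was at 16.9 and 1.05 FPKM (-3.13). The part of red cell precursors or dividing cells in the TFRC difference was not tested.

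HPX and CP are made by hepatocytes, whose other markers did not move in 1 direction. Of 25 such markers 4 were listed, 1 higher and 3 lower past the fold, and their summed level went from 5618 to 1613 FPKM, with none at 0. RBP4, the retinol carrier of plasma, was at 564 FPKM at day 1 and 1295 FPKM at week 40 (1.20). AHSG, the plasma protein fetuin-A, was at 2625 and 269 FPKM (-3.28), and FETUB, its relative, at 309 and 43.3 FPKM (-2.81). HPX and AHSG therefore had nearly the same level in immature livers and differed widely in mature livers. LFABP, a fatty acid-binding protein, was at 2119 and 5.09 FPKM (-8.44). ALB, which defines hepatocytes, is not listed and has no value here.

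**Figure D4:**
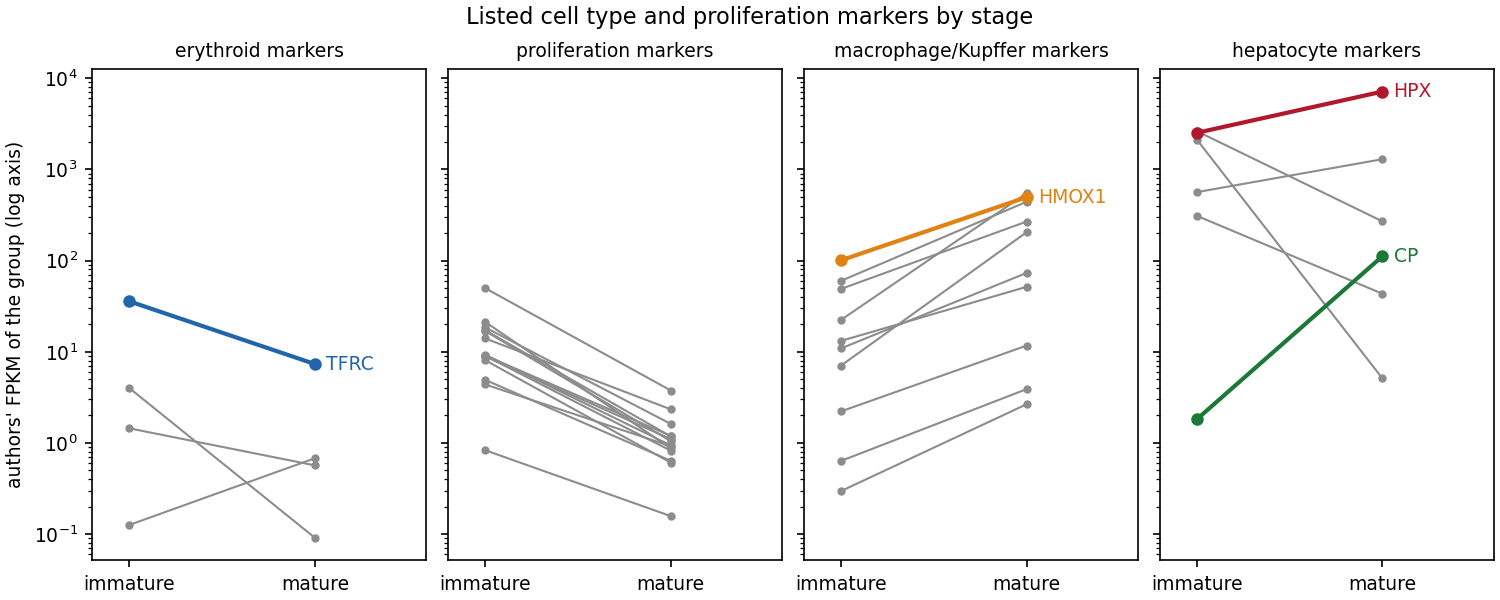
Authors' FPKM of each group on a log axis for the listed erythroid, proliferation, macrophage or Kupffer cell and hepatocyte markers in immature and mature livers. Grey lines are single marker transcripts and coloured lines HPX, HMOX1, CP and TFRC in the panel of a list that holds them. All macrophage markers are higher in mature livers, from 166 to 1606 FPKM summed without HMOX1, all proliferation markers are lower, and hepatocyte markers go both ways. CD74 (Ii) has 2 transcripts and is drawn as 2 lines.

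HPX and CP also belong to the plasma proteins that mammals raise in inflammation. Of the 22 other genes of a list of acute phase and secreted liver proteins, 3 were listed, 2 higher and 1 lower past the fold. C5, a complement protein, was at 10.8 FPKM at day 1 and 45.0 FPKM at week 40 (1.96). LECT2, a protein that the liver secretes and that attracts leukocytes, was at 0.519 and 5.58 FPKM (2.11). AHSG was the lower one. The part of inflammation in these differences was not tested. Counting HPX and CP themselves, the list had 4 genes higher and 1 lower past the fold, with a median difference of 1.96. That count restates the values of HPX and CP. Over all rows of this table of selected genes 35.9% were higher and 29.8% lower past the fold.

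HMOX1 is a classical target of the oxidative stress factor NRF2 in mammals. Of 21 other genes of that response 4 were listed, 1 higher and 3 lower past the fold. NQO1, a quinone reductase, was at 210 FPKM at day 1 and 82.8 FPKM at week 40 (-1.33). PRDX1, a peroxiredoxin, was at 519 and 236 FPKM (-1.14), and the pentose phosphate enzyme TKT at 90.5 and 23.3 FPKM (-1.91). GSTA, a glutathione transferase, was the higher one, at 61.5 and 166 FPKM (1.41). POR, named here after its value was seen, is the reductase that gives heme oxygenase its electrons. It was at 9.42 FPKM at day 1 and 1.55 FPKM at week 40 (-2.03), opposite to HMOX1.

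By level at both stages, the named transcripts most like each gene were found as the nearest points on log2(FPKM + 1) of the 2 groups. Nearest to HPX was the small nucleolar RNA U3 (distance 0.45), and next the serine synthesis enzyme PSPH (0.66) and SCARNA16 (0.88), another small nuclear RNA. HMOX1 was closest to HMGCS1, an enzyme of sterol synthesis, at 107 and 470 FPKM (distance 0.12), then to the chaperone HSP90AA1 (0.51) and UGP2 (0.53). Nearest to CP were a kinase listed as SIK1 (0.46), CHAC1 (0.88), which degrades glutathione, and Ex-FABP (1.29), a secreted protein that binds iron-loaded siderophores. TFRC was closest to TINAG (0.12), CRIP2 (0.22) and the cytochrome P450 CYP1A4 (0.30), a heme enzyme. These distances rest on 2 values per gene.

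HPX and HMOX1 lie on chromosome 1, which holds 228 of the 1480 rows, and CP and TFRC on chromosome 9, which holds 46. The listed gene next to HMOX1 was MCM5, a subunit of the replicative helicase, 1270 bases before it. MCM5 was at 18.5 FPKM at day 1 and 1.62 FPKM at week 40 (-2.90), so these adjacent genes differed in opposite directions. HPX had SMPD1, the lysosomal sphingomyelinase, 6587 bases after it, at 199 and 77.9 FPKM (-1.34), again opposite to its own difference. Within 500 kb of HPX 9 mRNAs were listed, 5 higher and 4 lower. HBE1 is one of the lower ones, with a gap of 121 kb. TFRC had SLC51A, a bile acid transporter subunit, 9480 bases before it, at 56.2 and 25.2 FPKM (-1.13), and within 500 kb 3 mRNAs were higher and 2 lower. No listed mRNA lay within 500 kb of CP, whose nearest was ARHGEF26 at 549 kb.

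Among the 622 deposited lncRNAs none overlapped these genes. The nearest were an lncRNA 182 kb after TFRC, at 0 FPKM at day 1 and 1.69 FPKM at week 40, and one 266 kb before HMOX1, at 1.08 and 0.380 FPKM. The one near TFRC is labelled intergenic, but the listed mRNA ENSGALG00000023879 has the same deposited start. That mRNA was at 2.36 FPKM at day 1 and 28.4 FPKM at week 40 (3.13). For CP the nearest was 422 kb before it, at 1.64 and 0.318 FPKM, and for HPX it was 10302 kb away. Over all 622 lncRNAs, 300 were higher and 322 were lower in mature livers.

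**Figure D5:**
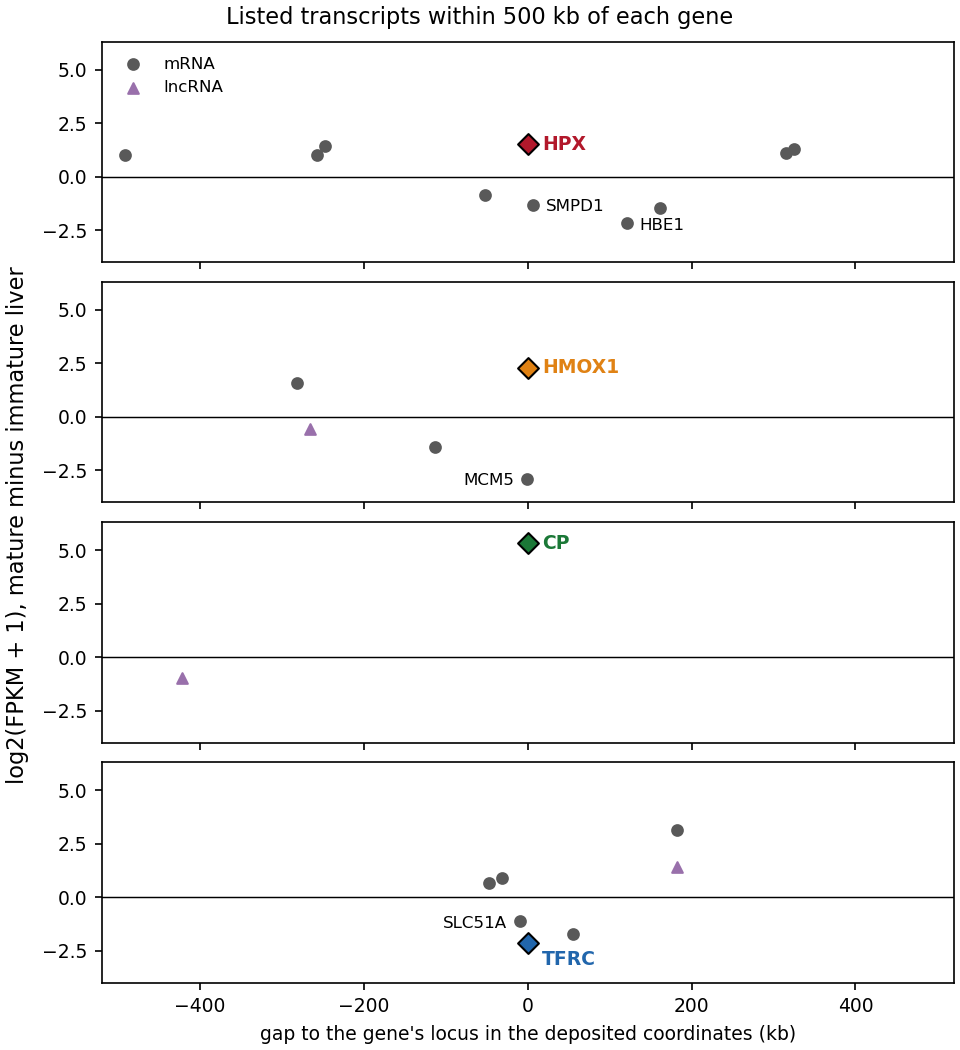
Listed transcripts within 500 kb of HPX, HMOX1, CP and TFRC. The horizontal axis is the gap to the gene's locus in kb in the deposited coordinates, and the vertical axis the difference of log2(FPKM + 1), mature minus immature livers. Diamonds are the 4 genes, circles mRNAs and triangles lncRNAs, and MCM5 (-2.90) lies 1.27 kb from HMOX1 (2.29).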

How the data were processed

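RNA of livers of 3 immature pools and 3 mature birds had been sequenced on strand-specific libraries. Tools listed in the submitters' processing notes, with no role, were Cuffdiff, Cufflinks, DESeq, TopHat, FastQC and Bowtie2 (2.0.6). The study describes mapping with TopHat to Galgal5 and the use of StringTie and Ballgown. The tables themselves name neither tool nor build. The deposited tables give the authors' FPKM, 1 value for each of the 2 groups, for 1480 mRNAs and 622 lncRNAs that the authors had called differentially expressed. The study's Results report sets of other sizes, with more mRNAs, most of them lower in mature livers, and fewer lncRNAs. The split of higher and lower mRNA rows given here is therefore not that of the published set. For lncRNAs the study's Discussion gives 300 higher and 322 lower in mature livers, the same split as the deposited rows. How libraries were combined into a group value is not stated. The study states read totals for each library, which are not repeated here. The tables hold neither fragment counts nor values per library, so no interval could be given. The tables also hold the authors' log2 ratio, direction, p-value and significance flag, which were not used.

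Differences of log2(FPKM + 1) were computed with Python 3.11.15, pandas 2.3.3 and numpy 2.4.6, and the calculation was tested on simulated data. That test planted changes without noise on levels raised away from 0. It checks the arithmetic only and does not bear on genes with low values. The test planned for library values (limma) could not be run on group values, so no p-value is given. Genes were matched by symbol or an older symbol. All genes of the 5 heme, iron and copper lists that the table holds, the listed markers, the 3 nearest transcripts by level and the nearest neighbours were taken for naming, and not every one is named. POR, SLC25A38, CYBRD1, the proliferation list and the Gene Ontology groups were chosen after values were seen. The 4 genes and the lists were chosen with earlier results of these data known. Alternatives were a pseudocount of 0.1 or none, a minimum mean of 1 FPKM, subtraction of the table median, a fold of 4, and summing rows of a symbol. Gene names and overlaps on GRCg7b came from a RefSeq table.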

Additional observations from a re-analysis of the deposited data

How the results depend on the processing

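HPX, HMOX1, CP and TFRC kept their direction in all 24 values under the 6 alternatives, and 22 of these stayed past the fold. Most of this was fixed in advance. The minimum mean, the fold of 4 and the summing of rows left the 4 differences unchanged. No choice of pseudocount can turn a direction, so only subtraction of the table median could have done so. A value was taken as moved when it shifted by 1.5 times or more, since no spread between libraries was at hand. With the table median subtracted the differences were 0.86 for HPX, 1.64 for HMOX1, 4.68 for CP and -2.78 for TFRC. HPX was then under the fold. Past the fold, 5 genes of the heme, iron and copper lists were then higher and 5 lower. In the same setting 222 mRNAs of the table were higher and 668 lower. Without a pseudocount the difference of CP was 5.94, 8 list genes were higher and 5 lower, and 803 mRNAs were higher and 663 lower. With a pseudocount of 0.1, 8 list genes were higher and 5 lower. HPX with 1.50 did not pass a fold of 4. At that fold 5 list genes were higher and 1 lower, and 140 mRNAs of the table were higher and 79 lower. Against this, the counts reported were 7 list genes higher and 3 lower, and 532 mRNAs higher and 441 lower. Leaving out each replicate was not run because the tables give 1 value per group. No paired analysis was possible because the columns carry no replicate numbers and the groups are different birds.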

Other observations

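Many proteins that use heme or iron were listed beside the genes that handle them, and they went in both directions. The table's own Gene Ontology terms, which are given for 1264 of 1480 rows, name 17 listed genes as heme binding, 9 of them higher and 8 lower in mature livers. Of the 20 genes named as iron ion binding, 11 were higher and 9 lower. Both splits are near that of the whole table, where 812 rows were higher and 668 lower. Among the heme enzymes, CYP2H1, a drug-metabolizing cytochrome P450, was at 108 FPKM at day 1 and 321 FPKM at week 40 (log2 difference 1.56). CYP7A1, the rate-limiting enzyme of bile acid synthesis, was at 40.1 and 4.22 FPKM (-2.97). IDO2, a heme enzyme that degrades tryptophan, was at 16.9 and 7.66 FPKM (-1.04). Nox2, the heme-holding subunit of the phagocyte oxidase, was at 0.688 and 8.90 FPKM (2.55).

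Of the 10 genes named as iron-sulfur cluster binding, 6 were lower and 4 higher, with a median difference of -1.10. The lower ones include complex I subunits of the respiratory chain, such as NDUFS7 at 288 FPKM at day 1 and 129 FPKM at week 40 (-1.16). The higher ones were the assembly factor ISCA1, RFESD, AOX1 and RSAD2, an antiviral enzyme, which was at 0.161 and 2.80 FPKM (1.71). The terms name 2 genes of heme biosynthesis, FECH and COX10, which makes the heme of cytochrome oxidase. COX10 was at 13.5 and 5.85 FPKM (-1.08). HMOX1, CP and TFRC share the term for cellular iron homeostasis with 1 further listed gene, FTD, a ferritin light chain by its description, at 2.66 and 1.31 FPKM (-0.67). Of 38 genes of the ferroptosis pathway, a form of cell death driven by iron, 7 were listed, HMOX1, CP and TFRC among them. The other 4 were SAT1, a polyamine enzyme, at 53.4 and 128 FPKM (1.25), and the lower LPCAT3, ACSL3 and SLC39A8. ACSL3, which activates fatty acids, was at 6.38 and 1.22 FPKM (-1.73).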
